A study of Homo sapiens with 16 samples.

Results

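The MYCN amplicon and the genes beside it were described here in BE2C cells, a human neuroblastoma line that carries many copies of MYCN. The members were 6 of the 21 protein-coding and long noncoding genes that lie wholly inside a 1.7-Mb interval of chromosome 2 (build hg19) and of 38659 such genes on chromosomes 1 to 22 and X. The interval opens 107 kb before the NBAS body and ends 52.4 kb after the CYRIA body. The members were chosen by position, as MYCN, its antisense transcript MYCNOS, GACAT3, DDX1, NBAS and CYRIA, and each was taken as its GENCODE body with 5 kb on either side. NBAS lies from 15307040 to 15701464 on the minus strand, DDX1 from 15731302 to 15774470 on the plus strand, MYCNOS from 16058473 to 16082371 on the minus strand, MYCN from 16080672 to 16087129 on the plus strand, GACAT3 from 16154050 to 16227323 on the plus strand and CYRIA, also named FAM49A, from 16730727 to 16847599 on the minus strand.

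CUT&Tag, which uses an antibody to bring a DNA-cutting and tagging enzyme to a histone mark, was run for H3K4me1, the monomethyl mark on lysine 4 of histone H3, and for H3K27me3, the trimethyl mark on its lysine 27. For each mark, 2 libraries of cells given the siRNA siKDM6B33 against the demethylase gene KDM6B for 72 h stood against 2 of cells given the control siRNA siCtrl, and 2 libraries of cells given 2.5 µM GSKJ4, an inhibitor of KDM6 demethylases, for 72 h stood against 2 of cells given 0.1% DMSO. The knockdown and the compound had separate controls, and all 16 libraries came from the same amplified line. The comparisons ask what loss or inhibition of the demethylase does to both marks. Depletion of KDM6B itself was not measured here, and no antibody-free or IgG library was analysed here.

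MYCN encodes a transcription factor of the MYC family that drives growth of neural crest progenitors, and amplification of a segment around it marks high-risk neuroblastoma. The amplified segment usually carries enhancers beside the gene, and its ends differ between tumours, so that neighbours such as DDX1 and NBAS are amplified with MYCN in some and not in others. H3K4me1 marks enhancers and the flanks of active promoters, while H3K27me3 is laid down by the Polycomb complex PRC2 over silent genes and removed by KDM6 demethylases.

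A set of 3 stretches of reference sequence carries the description below. The first was chosen from the 61 stretches of the interval called in all 8 H3K27me3 libraries, as the one whose lowest fold over local background in any library was the highest (8.73, with a highest of 10.1). Other peaks had a higher fold in single libraries. It spans 145 bp inside MYCN intron 1 and an exon of MYCNOS, 61.4% of its bases were G or C, and the capital letter marks the summit base, 1.046 kb after the MYCN start in all 8 libraries. The second was chosen by the same measure from 206 shared H3K4me1 stretches (lowest fold 18.1, highest 23.6). It spans 126 bp, is intronic in GACAT3 and in the antisense lncRNA ENSG00000226764, and 49.2% of its bases were G or C. Its capitals mark the bases spanned by the 8 summits, 109.75 to 109.761 kb after the MYCN start. The other stretch is the 250 bases before the MYCN start, where it overlaps exons of MYCNOS, and its capitals mark motif matches.
MYCN intron H3K27me3 summit, chr2:16081683-16081827, hg19, plus strand: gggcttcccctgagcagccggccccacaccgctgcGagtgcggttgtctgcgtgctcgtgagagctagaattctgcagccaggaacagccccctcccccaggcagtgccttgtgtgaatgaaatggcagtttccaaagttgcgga
GACAT3 H3K4me1 summit, chr2:16190378-16190503, hg19, plus strand: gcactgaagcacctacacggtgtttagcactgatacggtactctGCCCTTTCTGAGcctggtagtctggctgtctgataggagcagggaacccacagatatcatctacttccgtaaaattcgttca
MYCN promoter, chr2:16080422-16080671, hg19, plus strand: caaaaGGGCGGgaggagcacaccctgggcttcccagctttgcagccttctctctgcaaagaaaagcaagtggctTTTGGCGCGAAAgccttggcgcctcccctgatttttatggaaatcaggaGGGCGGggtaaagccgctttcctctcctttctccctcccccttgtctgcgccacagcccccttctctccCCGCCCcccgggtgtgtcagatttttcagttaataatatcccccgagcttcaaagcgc

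The MYCN promoter held 1 match to the E2F core TTTGGCGC and 1 to TTTCGCGC, which overlap each other on opposite strands, and 3 matches to the GC box GGGCGG. Both strands were searched, and 0.550%, 0.439% and 42.6% of 35116 RefSeq promoters (GRCh38.p14, the same 250 bases before the start) held these letters. E2F factors control genes of the cell cycle, and GC boxes are common in promoters. There was no match in the promoter to the MYC E-box CACGTG (in 6.34% of promoters), to the GATA core GATAA (20.4%), to the homeodomain core TAATTA (4.35%) or to the E-box CAGCTG of other helix-loop-helix factors (14%), and none of the 7 motifs had a match in the summit stretches of either mark. A match is a run of letters only and was not tested for binding.

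The files gave regions and not reads, so 4 measures were taken per gene. Broad islands (SICER) gave the percent of the gene window covered. Narrow peaks (MACS2) gave the number of summits per 10 kb, the median fold of peak height over the local background, and the local tag density. The last is the number of tags in the 10 kb around a summit divided by the genome mean of the same library, and it was solved from the fold and p-value of each peak. Its lowest possible value is 1, since the peak caller put no background below the genome mean. The fold has the local background as its denominator and so does not show a raised background itself, and the local tag density is the measure that shows how tags pile up in an amplified segment. Copy number, tags from DNA without the mark and the mark per copy cannot be told apart in it. A gain or loss over the whole genome cannot be seen in a ratio within a library.

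The H3K27me3 libraries held 7175 to 16676 islands and 29752 to 61200 narrow peaks with 8.41 to 15.2 tags per 10 kb of genome, and the H3K4me1 libraries 17765 to 24917 islands and 61087 to 131341 narrow peaks with 13.7 to 30.2 tags. GSKJ4 H3K27me3 replicate 1 had the most of both among the H3K27me3 libraries. It stood apart from its replicate 2, which had 8006 islands and 40590 narrow peaks. The siKDM6B33 H3K27me3 libraries had 15947 and 15775 islands, against 10555 and 10592 in siCtrl cells. All 9 adrenergic neuroblastoma markers used, such as HAND2 and DBH, carried H3K4me1 islands in all 8 libraries. Of 7 markers of other cell types, 1 or 2 did. The window of the pancreatic INS, with 5 kb on either side, carried islands in all 8 libraries. Its local tag density was 49.0 and 36 times the genome mean in siCtrl cells and 18.0 and 28.0 in DMSO cells. It was 17.7 in 1 GSKJ4 library, and no narrow peak lay there in the other or in siKDM6B33 cells. Whether these islands belong to INS or to a gene beside it was not tested. H3K27me3 islands lay on 0 of the 9 adrenergic markers in siCtrl cells and on 2 and 1 in siKDM6B33 cells, but on 7 and 6 in DMSO cells and 9 and 6 with GSKJ4. The H3K27me3 libraries of the compound experiment thus carried islands on genes that also carried H3K4me1 islands, and what this does to their values at the amplicon was not tested. Labels and files do not show whether these 4 libraries hold signal of H3K27me3 alone, or whether an antibody or sample was exchanged or mixed, and every H3K27me3 value of the compound experiment carries that doubt. At OSR1, a gene of the same chromosome arm, these libraries had an H3K27me3 local tag density (tags around a summit over the genome mean) of 81.0 and 87.4 in DMSO cells and 49.4 and 54.4 with GSKJ4, while their H3K4me1 counterparts had 11.2 and 5.53, and 11 and 7.13, so the marks were not alike there.

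Islands of both marks filled the same block around MYCN in all 16 libraries. The block opened at 16076401, 4.271 kb before the MYCN start and inside MYCNOS, in 16 of 16 libraries. Island borders fall on a grid of 200 bp, so positions agree to that grid and no finer. It broke at 16279600 in 12 libraries and at 16279800 in the other 4, and resumed at 16330001 in all 16, which left a gap of 50.2 to 50.4 kb beyond GACAT3. It closed between 16602200 and 16603600, most often at 16602600 (7 libraries), 521.928 kb after the MYCN start and short of CYRIA. These shared borders did not move with the mark, the siRNA or the compound by more than 1.4 kb.

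Inside these borders islands covered 463.4 to 473.2 kb in 4 to 11 pieces, and 93.8 to 99.2% of all island length of the interval lay there. The widest piece ran over 98.8 to 195.4 kb. Only 1 to 7 islands were called elsewhere in the interval.

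**Figure D1:**
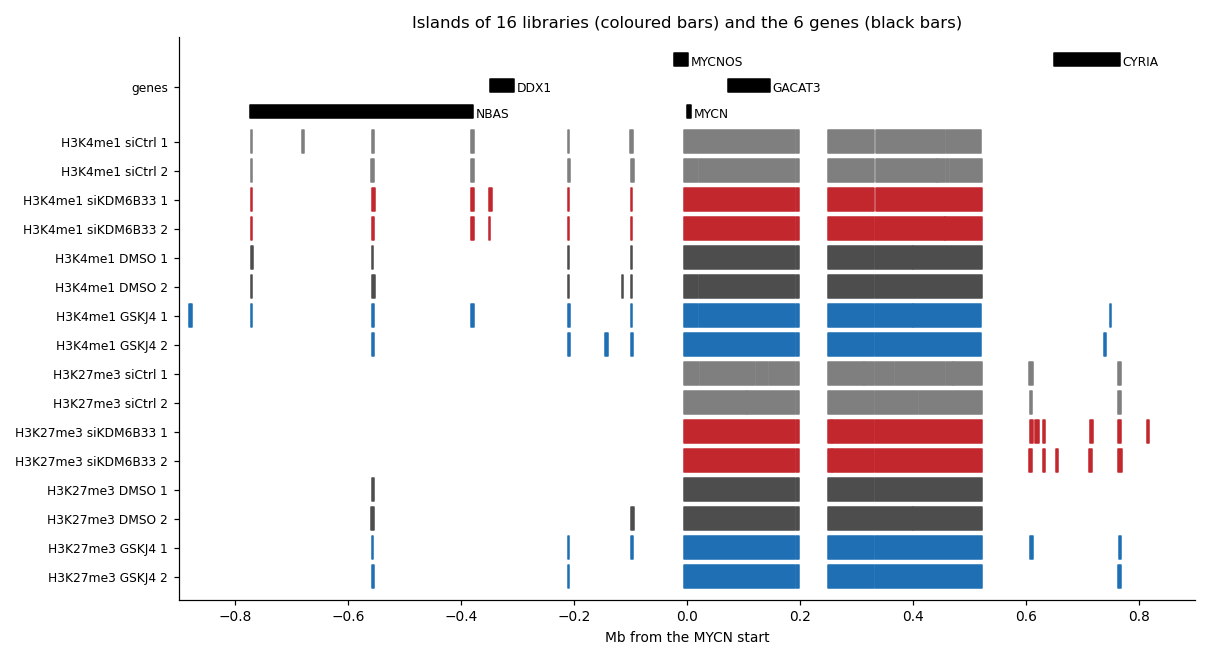
Broad islands of each of the 16 libraries, 1 row per library, against distance from the MYCN start in Mb, with the 6 gene bodies drawn above. The islands of both marks start 4.271 kb before MYCN, break for 50.2 to 50.4 kb and end 521.928 kb after it in the commonest case, so that MYCN and GACAT3 lie inside the block and DDX1, NBAS and CYRIA outside.

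The block stood far above its surroundings. The median over its 10-kb bins of H3K4me1 local tag density was 63.6 and 59.6 times the genome mean in siCtrl cells, 51.3 and 53.4 in siKDM6B33 cells, 83.3 and 88.1 in DMSO cells and 83.3 and 81.8 with GSKJ4. For H3K27me3 it was 51.1 and 58.6 in siCtrl cells, 49.7 and 45.3 in siKDM6B33 cells, 69.5 and 66.9 in DMSO cells and 75.3 and 82.7 with GSKJ4. Tag density in the block was thus of the same order in the libraries of both marks. It does not tell a raised mark from a raised copy number. Bins of the interval outside the block had medians of 1.00 to 3.08, and their highest bin reached 4.71 to 13.0.

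**Figure D2:**
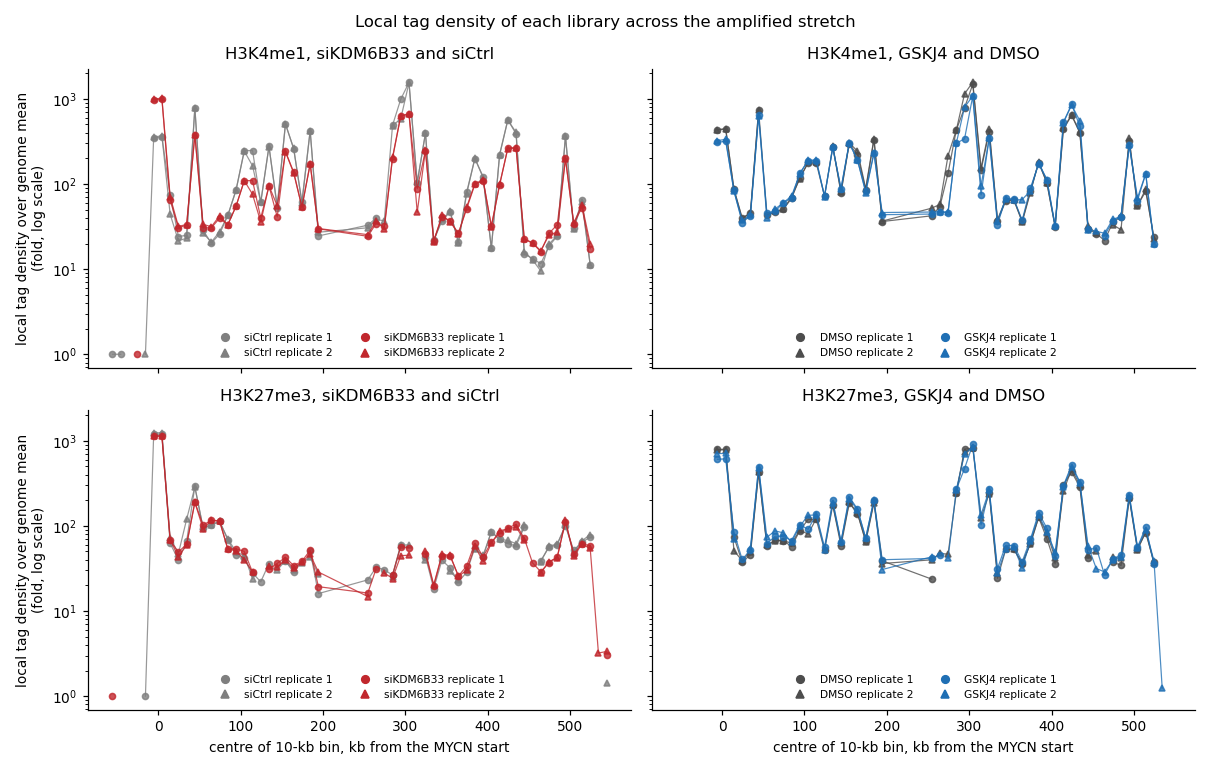
Local tag density over the genome mean (log scale) in 10-kb bins against distance from the MYCN start in kb, 1 panel per mark and experiment and 1 point per bin and library that had a peak there. The bins of the block have medians of 45.3 to 88.1, and the axis ends near the borders of the block.

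The length covered by islands over the whole interval differed little. For H3K27me3 it was 474.4 and 476.8 kb in siCtrl cells and 501.8 and 493.6 kb after knockdown, 22.1 kb more on average. With DMSO it was 475.4 and 483 kb and with GSKJ4 485 and 483.6 kb, 5.1 kb more. Outside the borders of the block H3K27me3 islands covered 11 and 7.4 kb in siCtrl cells but 31.2 and 23 kb in siKDM6B33 cells. Most of the knockdown difference thus lay there. Over the whole genome H3K27me3 islands covered 53.7 and 54.2 Mb in siCtrl cells and 89.8 and 87.3 Mb in siKDM6B33 cells. The longer coverage after knockdown was thus not particular to the interval. For H3K4me1 the length covered in the interval was 489.2 and 484.8 kb in siCtrl cells against 490.8 and 489.2 kb after knockdown. These values touch (exact permutation p = 0.667, adjusted p = 0.821). With DMSO it was 478.2 and 482.6 kb and with GSKJ4 492.8 and 490.4 kb, 11.2 kb more. The H3K27me3 difference with the compound ran from 1.3 to 8.9 kb with 1 library left out at a time. It was 4.4 kb without GSKJ4 H3K27me3 replicate 1. The exact two-sided permutation test gave p = 0.333 for the other 3 comparisons, the smallest that 2 libraries against 2 allow, and 0.444 after Benjamini-Hochberg adjustment over the 16 exact tests. The study describes its replicates as biological, the labels name no separate cultures, and each p measures only the spread between these libraries.

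MYCN, the oncogene of the block, carried both marks over 95.6% of its window in all 16 libraries, so island coverage could show no change there. Its H3K4me1 local tag density was 357 and 367 times the genome mean in siCtrl cells and 988 and 1015 in siKDM6B33 cells. The knockdown libraries lay far above the controls, at a mean of 1001 ± 18.8 against 362 ± 7.41 (SD, n = 2), which is 2.77 times. With DMSO it was 439 and 444 and with GSKJ4 318 and 333. The compound libraries lay below their controls, at 326 ± 10.3 against 442 ± 3.77 (SD, n = 2), which is 0.737 times. The exact permutation test gave p = 0.333 for both, the smallest it allows (adjusted p = 0.444). With peaks within 100 bp of each other joined, the median of the window fell on a summit beyond the gene and the knockdown difference was −281 in place of 639.

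The H3K27me3 local tag density at MYCN was higher than that of H3K4me1 in each of the 4 groups. Each value is scaled to the mean of its own library, so this does not compare the amounts of the marks. The H3K27me3 density was 1194 and 1236 in siCtrl cells and 1131 and 1139 in siKDM6B33 cells, a ratio of 0.934. With DMSO it was 794 and 783 and with GSKJ4 612 and 709, a ratio of 0.838. The groups did not overlap in either comparison, and the exact permutation p was 0.333 (adjusted p = 0.444). Without GSKJ4 replicate 1, the library that stood apart, the compound difference was −79.4 in place of −128. Between 4922 and 30138 tags (H3K4me1) and 6679 and 17222 tags (H3K27me3) lay in the 10 kb behind these medians.

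Set against the median of the block in the same library, MYCN had a high and changing level. The H3K4me1 ratio of MYCN to the block median was 5.61 and 6.16 in siCtrl cells and 19.3 and 19.0 in siKDM6B33 cells, 3.25 times as high. It was 5.27 and 5.04 in DMSO cells and 3.82 and 4.07 with GSKJ4, 0.765 times. The change at MYCN was not shared by the median of the block. For H3K27me3 the ratio was 23.4 and 21.1 in siCtrl cells and 22.8 and 25.2 in siKDM6B33 cells, which overlap. It was 11.4 and 11.7 in DMSO cells and 8.12 and 8.57 with GSKJ4, 0.722 times.

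A limma fit over all genes with a peak in each of the 8 libraries of a mark placed these values beside the rest of the genome. This fit was added after the data were seen. It held 12246 genes for H3K4me1 and 4395 for H3K27me3, and 4 of the 6 members for each (MYCN, MYCNOS and GACAT3 in both, NBAS for H3K4me1, CYRIA for H3K27me3). A member in this fit had to have peaks in every library, so its counts describe these members only. After knockdown 47.3% of genes had a higher and 17.4% a lower H3K4me1 level (adjusted p under 0.05), and the median gene stood at +0.68 on the log2 scale. With peaks of −log10 q of at least 5 only, the fit held 4460 genes, of which 1206 were higher and 1684 lower, and the median gene stood at −0.17. MYCN rose by 1.47 ± 0.0329 (SE, limma adjusted p = 1.82e-05), which put it at percentile 72.1 of all genes. Its rise was thus above the median shift in both fits.

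With GSKJ4, 2.86% of genes were higher and 8.48% lower in H3K4me1, and the median gene stood at −0.13. No gene was called under the replicate block or with the compound libraries alone. MYCN fell by 0.44 on the log2 scale (SE 0.0329, limma adjusted p = 0.00255). The call was lost under the replicate block (limma adjusted p = 0.0571) and when the fit held only the 4 compound libraries (limma adjusted p = 0.105, range over all alternatives 0.00108 to 0.105). The difference between the knockdown effect and the compound effect was 1.91 ± 0.0465 (SE, limma adjusted p = 5.58e-05), in a genome where 43.3% of genes had a higher and 12.9% a lower difference and the median was 0.82. MYCN H3K4me1 thus moved in opposite directions in the knockdown and compound experiments in this fit. With peaks within 100 bp joined, the knockdown difference in density was −281 in place of 639.

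For H3K27me3, 1.41% of genes were higher and 21.5% lower after knockdown, with the median gene at −0.38, and MYCN stood at −0.10 (limma adjusted p = 0.406). With GSKJ4, 0.774% were higher and 21% lower, with the median at −0.34. MYCN fell by 0.26 on the log2 scale (SE 0.0702, limma adjusted p = 0.0486), a call that held in 3 of 12 alternatives, whose adjusted p ran from 0.00579 to 0.393. Without GSKJ4 replicate 1 the value was −0.15 (limma adjusted p = 0.0800). The difference between the knockdown and compound effects was not called for any of the 4 members, against 0.114% of genes higher and 0.364% lower.

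MYCNOS, the antisense lncRNA that starts inside MYCN and runs the opposite way, shares the peaks at the MYCN start, and reads from either gene cannot be told apart. Its window was covered over 32.4% by islands of either mark in all 16 libraries, because the block opens inside it and leaves its 3′ part bare. Its H3K4me1 local tag density of 359 and 368 in siCtrl cells and 994 and 1017 in siKDM6B33 cells followed that of MYCN, as did 443 and 447 in DMSO cells and 319 and 335 with GSKJ4. The limma change was +1.47 in siKDM6B33 cells (adjusted p = 1.82e-05) and −0.44 with GSKJ4 (adjusted p = 0.00255), a call lost under the replicate block (limma adjusted p = 0.0571) and with the compound libraries alone (0.105). For H3K27me3 MYCNOS stood at −0.26 with GSKJ4 (limma adjusted p = 0.0510), just short of the call that MYCN made on nearly the same peaks, at −0.15 without GSKJ4 replicate 1 (limma adjusted p = 0.0923) and at −0.37 without GSKJ4 replicate 2 (limma adjusted p = 0.00621, range over all alternatives 0.00621 to 0.395).

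**Figure D3:**
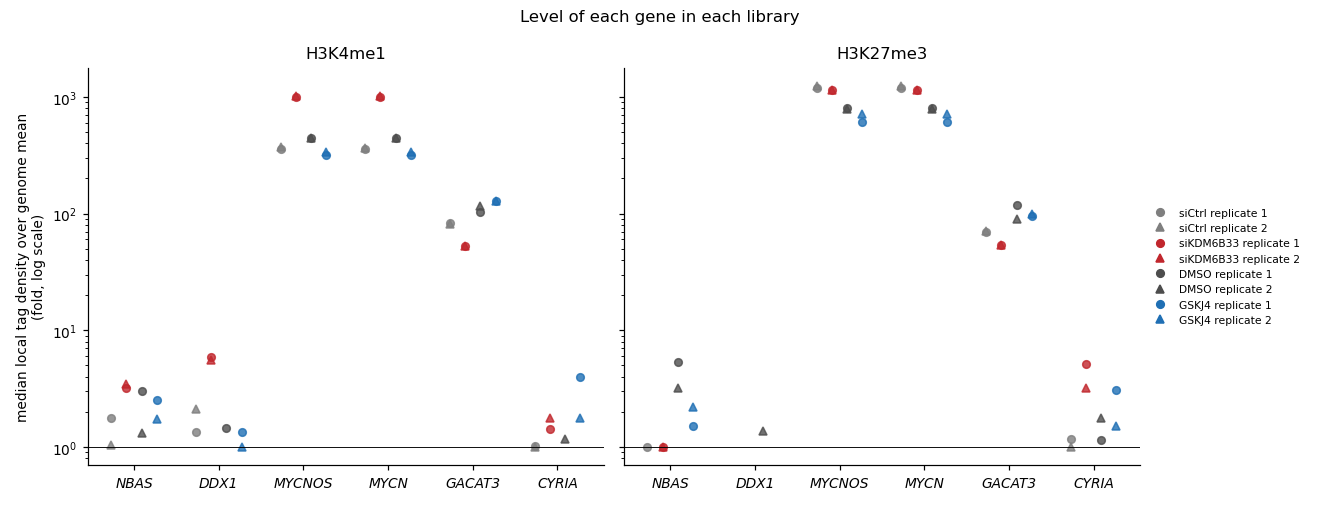
Median local tag density over the genome mean (log scale) of each of the 6 genes in each library, H3K4me1 on the left and H3K27me3 on the right, with 1 point per library and none where no peak was called. MYCN and MYCNOS lie between 988 and 1017 for H3K4me1 in siKDM6B33 cells and between 318 and 447 in the other groups, while DDX1, NBAS and CYRIA stay at 5.89 or lower.

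The change at MYCN was not even along its window. Summits were called at the same 5 places of the MYCN window in all 16 libraries, 432 bp before the start, 284 to 294, 432 to 449 and 2570 to 2588 bp after it and 9057 to 9076 bp after it, beyond the gene end. At the summit 432 bp before the start, H3K4me1 local tag density was 355.8 ± 6.77 in siCtrl cells and 996.5 ± 15.9 in siKDM6B33 cells (SD, n = 2), 2.80 times. At the summit 9057 to 9076 bp after it, it was 81.5 ± 0.909 and 83.1 ± 1.89, a ratio of 1.02 with overlapping libraries. The ratio at 2570 to 2588 bp was still 2.71, so the rise ran from before the start into the gene and was not seen at the summit beyond its end. Neighbouring places at the 5′ end share most of their 10-kb windows. The places were chosen after their values were seen, and their ratios are a description with no test.

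GSKJ4 gave the same layout with the other sign. At the upstream summit H3K4me1 was 437.6 in DMSO cells and 320.7 with the compound, a ratio of 0.733, and at the downstream summit 92.8 and 88.5, a ratio of 0.954. For H3K27me3 the upstream summit was 1230 in siCtrl cells and 1143 in siKDM6B33 cells, and 788 in DMSO cells and 662 with GSKJ4, while both downstream comparisons overlapped (94.8 and 90.7, 84.3 and 90.3). The height of single summits moved unevenly. For H3K4me1 after knockdown the summit 284 to 294 bp after the start, beyond exon 1, was 1328 times the genome mean in siCtrl cells and 5829 in siKDM6B33 cells, 4.39 times, while the density around it rose 2.78 times. The height 432 bp before the start was 2.44 times and that at 2570 to 2588 bp 1.77 times as high, both less than the density there (2.80 and 2.71 times). The height at the summit beyond the gene went the other way, to 0.658 times.

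The place of the highest H3K4me1 summit also changed. A summit at −703 to −700 bp from the start was the highest of the window in the siCtrl, DMSO and GSKJ4 libraries, at 4014 and 3864 times the genome mean in siCtrl cells, and was called in neither siKDM6B33 H3K4me1 library. There the highest summit lay 1046 bp after the start, at 7967 and 8125 against 1918 and 2274 in siCtrl cells, which is the summit of the H3K27me3 stretch printed above. After knockdown the H3K4me1 libraries thus had their highest MYCN summit at the same base as that H3K27me3 stretch. Labels and files do not show whether these H3K4me1 libraries hold signal of that mark alone. Every H3K4me1 comparison after knockdown carries that doubt, the rise at MYCN among them.

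**Figure D4:**
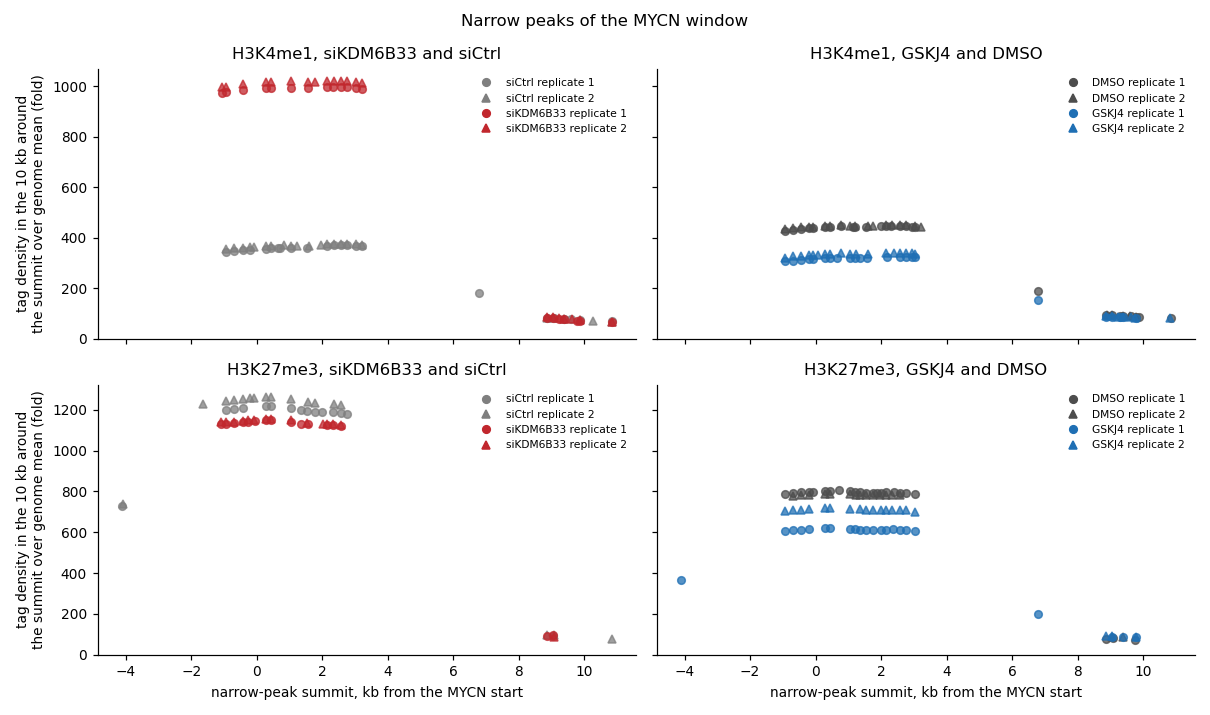
Local tag density around each H3K4me1 and H3K27me3 summit of the MYCN window over the genome mean (linear scale) against distance from the MYCN start in kb, 1 panel per mark and experiment and 1 point per summit and library. At the 5′ summits the knockdown libraries lie near 996.5 and siCtrl near 355.8 for H3K4me1, and at the summits beyond the gene all libraries lie close together.

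The fold over local background did not show this change. The median H3K4me1 fold at MYCN was 4.41 and 4.95 in siCtrl cells, 4.00 and 4.08 in siKDM6B33 cells, 4.21 and 4.59 in DMSO cells and 4.17 and 4.10 with GSKJ4. For H3K27me3 it was 4.15 and 4.34, 4.09 and 4.08, 4.21 and 4.52, and 3.85 and 4.07 in the same order. The differences of treated from control libraries were −0.641, −0.267, −0.155 and −0.401, each with an exact permutation p of 0.333 (adjusted p = 0.444). The sign turned with no flank for H3K4me1 (0.895 after knockdown and 0.0850 with GSKJ4) and with joined peaks for H3K27me3 after knockdown (0.296) and H3K4me1 with GSKJ4 (0.136), so no direction of the fold at MYCN is given. With 1 library left out at a time the differences ran from −0.913 to −0.369, −0.455 to −0.0780, −0.251 to −0.0588 and −0.557 to −0.246 in the same order.

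The number of summits at MYCN told little. There were 14 and 14.6 H3K4me1 peaks per 10 kb in siCtrl cells and 12.2 and 12.8 in siKDM6B33 cells, a difference of −1.82 (exact permutation p = 0.333, adjusted p = 0.444). With DMSO there were 16.4 and 14 and with GSKJ4 14 and 15.2, which overlap (exact permutation p = 1). For H3K27me3 there were 9.11 and 10.3 in siCtrl cells, 9.72 and 9.11 in siKDM6B33 cells, 14 and 9.72 in DMSO cells and 13.4 and 11.5 with GSKJ4 (exact permutation p = 1 in both). In the planned limma fit of peak numbers over 16699 genes for H3K4me1 and 6230 for H3K27me3, 0.335% of genes were called for H3K4me1 in siKDM6B33 cells (18 higher, 38 lower) and 0% in the other comparisons and in the differences between them. These calls fell to 0 and 0 under the replicate block and when any library but GSKJ4 replicate 2 was left out (15 and 32 without it). With −log10 q of at least 5 they were 299 and 406, and those of H3K4me1 with GSKJ4 184 and 374, so the number of calls turned on the setting. At an unadjusted p under 0.05 there were 3638 and 2661 genes for H3K4me1 and 743 and 787 for H3K27me3 in siKDM6B33 cells and GSKJ4, and 3547 and 411 for the differences. None of the members in the fit was called (6 for H3K4me1 and 5 for H3K27me3, without DDX1), and MYCN stood at −0.20 and −0.22 for H3K4me1 (limma adjusted p = 0.433 and 0.481) and at −0.46 and −0.53 for H3K27me3 (limma adjusted p = 0.580 and 0.495).

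GACAT3, a lncRNA whose whole body lies inside the block, was ordered the other way round from MYCN in H3K4me1. Islands covered 100% of its window in all libraries but the siCtrl H3K27me3 pair, with 98.1 and 98.8%. Its H3K4me1 local tag density was 83.4 and 81.8 in siCtrl cells and 52.9 and 52.6 in siKDM6B33 cells, and 103 and 115 in DMSO cells and 127 and 129 with GSKJ4. The groups did not overlap in either experiment. In the limma fit it fell by 0.65 on the log2 scale after knockdown (SE 0.0595, adjusted p = 0.000216), at percentile 17.4 of all genes. With GSKJ4 it stood at 0.24 ± 0.0595 (SE, limma adjusted p = 0.0559), or 0.15 without DMSO replicate 1 (0.0770) and 0.32 without DMSO replicate 2 (0.0212, range over all alternatives 0.0192 to 0.222), and the knockdown and compound effects differed by −0.88 ± 0.0841 (SE, limma adjusted p = 0.000512). Relative to the block median GACAT3 H3K4me1 was 0.751 times as high after knockdown and 1.22 times with GSKJ4.

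Its H3K27me3 local tag density was 69.0 and 70.3 in siCtrl cells and 53.2 and 53.6 in siKDM6B33 cells (limma log2 −0.38, adjusted p = 0.0856). Over the alternatives it ran from −0.40 to −0.06 (−0.06 with no flank), with limma adjusted p from 0.00804 to 0.433, and passed the threshold in 3 of 12. It was 119 and 90.2 in DMSO cells and 94.9 and 99.3 with GSKJ4, which overlap (−0.09, limma adjusted p = 0.703, but 0.11 without DMSO replicate 1 and −0.29 without replicate 2). The highest H3K27me3 fold in GACAT3 was 8.19 and 7.14 in siCtrl cells and 11.1 and 10.3 in siKDM6B33 cells, and 17.8 and 17.0 in DMSO cells and 16.2 and 16.7 with GSKJ4.

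The H3K4me1 stretch printed above had the highest fold of the GACAT3 window in all 8 H3K4me1 libraries. Its fold was 22.6 for each siKDM6B33 library, 23.6 and 22.6 in siCtrl cells, 20.8 and 18.1 in DMSO cells and 18.2 and 18.6 with GSKJ4. Its height over the genome mean was 6088 and 5761 in siCtrl cells against 2693 in each siKDM6B33 library, and 4044 and 3684 in DMSO cells and 3745 and 3899 with GSKJ4. After knockdown the height and the surrounding density, 248 and 244 against 110 and 110, were lower together. The H3K27me3 stretch in MYCN intron 1 had folds of 8.73 and 8.75 in siCtrl cells, 9.30 and 9.27 in siKDM6B33 cells, 9.19 and 9.35 in DMSO cells and 9.21 and 10.1 with GSKJ4.

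Other parts of the block also moved unevenly, as 10-kb bins chosen for their size of change showed. After knockdown the H3K4me1 bin at 304 kb after the MYCN start was 658 and 666 against 1558 and 1542 in siCtrl cells (0.43 times), the bin at 184 kb was 170 and 174 against 423 and 423 (0.41 times) and that at 134 kb 95 and 95.1 against 278 and 276 (0.34 times). The bin at 304 kb was the highest of the block for H3K4me1 in siCtrl cells, DMSO and GSKJ4, and that at MYCN was the highest after knockdown. With GSKJ4 the bin at 424 kb was 860 and 847 against 641 and 649 (1.32 times) and that at 274 kb 46.3 and 46.7 against 134 and 216 (0.27 times). For H3K27me3 in siKDM6B33 cells the bin at 434 kb was 104 and 97.2 against 58.2 and 61.9 (1.67 times) and that at 44 kb 190 and 188 against 291 and 285 (0.66 times).

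Counted over the block, 18 of 48 H3K4me1 bins were higher in both knockdown libraries than in both controls and 26 lower, against 47% and 40.3% of bins over the genome, with a median of −0.19 against 0.09 on the log2 scale. With GSKJ4 17 of 45 were higher and 19 lower, against 23.9% and 41.2%. For H3K27me3 13 of 37 were higher after knockdown and 14 lower, against 17.8% and 59.1%, with a median of 0.01 against −0.30. With GSKJ4 31 of 41 were higher and 3 lower, against 30.1% and 30.4%, with a median of 0.14 against 0.05. Neighbouring bins of an amplified block are not independent of each other, and no test was made over them.

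The 2 marks followed each other along the block in the compound experiment and less in the knockdown experiment. Across 40 to 47 bins with peaks of both marks, Pearson's r between the marks was 0.238 and 0.140 in siCtrl cells, 0.570 and 0.551 in siKDM6B33 cells, 0.956 and 0.930 in DMSO cells and 0.953 and 0.935 with GSKJ4. Bins share a library, its depth and the copy number of the block, and r is a description over bins. The same compound H3K27me3 libraries carried islands on the adrenergic markers.

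**Figure D5:**
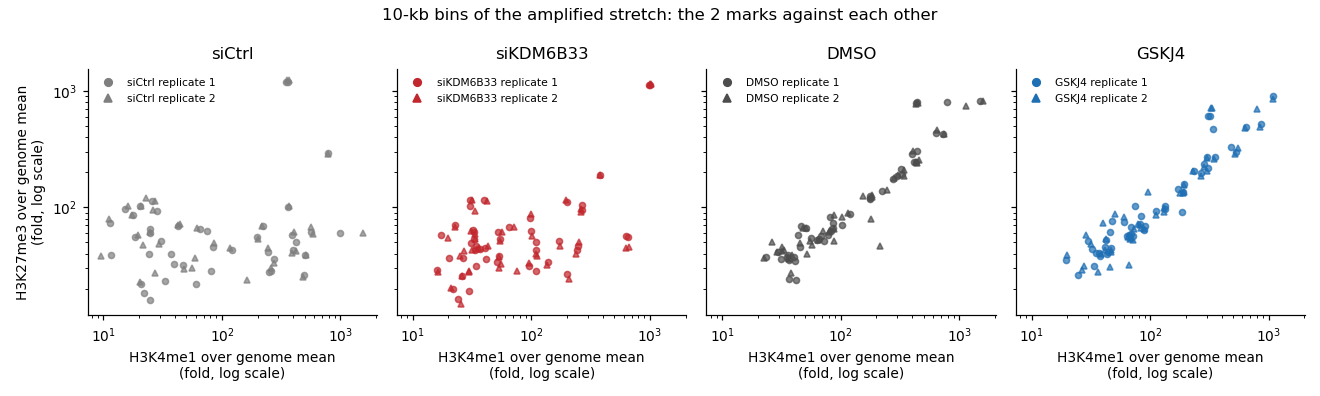
H3K27me3 against H3K4me1 local tag density over the genome mean (both log scales) in the 10-kb bins of the block, 1 panel per group and 1 point per bin and library. Points lie along a line in DMSO cells and GSKJ4 (r of 0.930 to 0.956) and scatter in siCtrl cells (r of 0.140 and 0.238).

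DDX1, an RNA helicase gene that is amplified with MYCN in some tumours, lay outside the block, at 5.89 times the genome mean or lower. It had no H3K27me3 island in 8 libraries and an H3K27me3 peak in 1 of them. H3K4me1 islands covered 6.77 and 3.39% of it after knockdown, the lower value from an island of 1.8 kb, and none in siCtrl cells, DMSO or GSKJ4. Its H3K4me1 local tag density was 1.34 and 2.12 in siCtrl cells, 5.89 and 5.60 in siKDM6B33 cells, 1.46 and no peak in DMSO cells and 1.36 and 1.00 with GSKJ4. Both knockdown libraries lay above the others. DDX1 was left out of the limma fit of density because 1 library had no peak.

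NBAS, which encodes a protein of Golgi-to-ER transport and nonsense-mediated decay, was at background over most of its length. H3K4me1 islands covered 3.66 and 3.12% in siCtrl cells against 3.02% in each siKDM6B33 library, and 0.94 and 1.73% in DMSO cells and 2.97 and 0.89% with GSKJ4. Its local tag density was 1.76 and 1.04 in siCtrl cells and 3.21 and 3.47 in siKDM6B33 cells, and 3.02 and 1.32 in DMSO cells and 2.52 and 1.74 with GSKJ4. In the limma fit it rose by 1.3 ± 0.458 in siKDM6B33 cells (SE, adjusted p = 0.0455), a call that held in 5 of 12 alternatives, whose adjusted p ran from 0.0193 to 0.204. It was lost without siCtrl replicate 2 (0.92), siKDM6B33 replicate 1 (1.36) or replicate 2 (1.24) and without either GSKJ4 library. H3K27me3 islands covered none of NBAS in the 4 libraries of the knockdown experiment, 0.89 and 1.14% in DMSO cells and 0.445 and 1.04% with GSKJ4.

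CYRIA, a Rac1-binding regulator of actin that lies beyond the far border of the block, carried little of either mark. H3K27me3 islands covered 3.47 and 3.00% in siCtrl cells and 7.72 and 10.2% in siKDM6B33 cells, and none in DMSO cells against 2.52 and 3.63% with GSKJ4. Its H3K27me3 local tag density was 1.16 and 1.00 in siCtrl cells and 5.12 and 3.18 in siKDM6B33 cells. In the limma fit it rose by 1.90 ± 0.447 on the log2 scale (SE, adjusted p = 0.0290), at percentile 99.4 of all genes. The call held in 7 of 11 alternatives, with adjusted p from 0.0195 to 0.129. It was lost without siCtrl replicate 1 (2.01), siCtrl replicate 2 (1.79) or siKDM6B33 replicate 1 (1.56) and under the replicate block (limma adjusted p = 0.0886). With GSKJ4 the density was 3.11 and 1.53 against 1.15 and 1.78 in DMSO cells (limma adjusted p = 0.442). These densities rest on 9.71 to 78.0 tags per 10 kb, far fewer than at MYCN, and the value of 1.00 is the lowest the measure allows. H3K4me1 islands covered 1.42 and 2.68% of CYRIA with GSKJ4 and none in the other 6 libraries.

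Of the 4 members with an H3K27me3 island in the knockdown experiment, coverage lay apart and higher after knockdown in 2 (GACAT3 and CYRIA) and lower in none, against 37.8% and 10% of all genes with an island. The other 3 comparisons each had 5 members with an island. With GSKJ4 H3K27me3 coverage lay higher in 1 (CYRIA) and lower in none, against 12.9% and 10.5%. For H3K4me1 it lay higher in 1 (DDX1) and lower in 1 (NBAS) after knockdown, against 61% and 16%, and higher in 1 (CYRIA) and lower in none with GSKJ4, against 20.7% and 18.3%. In the limma fit of density, 3 of 4 members rose and 1 fell in H3K4me1 in siKDM6B33 cells, against 47.3% and 17.4% of all genes, and the NBAS call among these held in 5 of 12 alternatives. With GSKJ4 MYCN and MYCNOS fell and none rose, against 8.48% and 2.86% of all genes, and both calls were lost under the replicate block and with the compound libraries alone. MYCN and MYCNOS share peaks and are not independent in these counts.

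A list of 14 further genes on the short arm of chromosome 2, among them ODC1 of polyamine synthesis, the receptor kinase gene ALK and the transcription factor gene OSR1, gave the setting outside the interval. The limma fit of density held 9 of the 14 for H3K4me1, of which 5 rose after knockdown (ODC1, TRIB2, VSNL1, SMC6 and OSR1) and 2 fell (LPIN1 and MSGN1), and 1 fell with GSKJ4 (MSGN1). Over all genes 47.3% rose and 17.4% fell after knockdown, and 8.48% fell with GSKJ4, where no gene was called under the replicate block or with the compound libraries alone. It held 6 for H3K27me3, of which 2 fell after knockdown (LRATD1 and OSR1) and 3 with GSKJ4 (LRATD1, VSNL1 and OSR1), against 21.5% and 21% of all genes. No gene of the list was called in the fit of peak numbers. The level of MYCN was not approached by them, the highest being H3K27me3 at OSR1 with 125 and 127 in siCtrl cells. OSR1 H3K4me1 was 1.61 and 1.54 in siCtrl cells and 11.7 and 12.8 in siKDM6B33 cells, so this gene with high H3K27me3 was also among those that rose in H3K4me1.

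Genes outside the interval whose number of peaks followed that of MYCN most closely over the 8 libraries of a mark were BMP2 (r = 0.923), NTN4 (r = 0.922) and USP15 (r = 0.899) of 6215 genes for H3K27me3, and ENSG00000256403 (r = 0.989), SEC14L5 (r = 0.989) and LINC01937 (r = 0.983) of 16683 genes for H3K4me1. Pearson's r was taken on the log2 number of peaks scaled to the library, over points that share their library's depth, and is a description.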

How the data were processed

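CUT&Tag reads were processed by the authors before deposit. The submitters' processing notes name Trim Galore 0.4.4, BWA 0.7.12, Picard 1.65, SAMtools 1.3.1, MACS2 2.1.1, SICER 1.1 and bedtools 2.25.0 on build hg19. The authors called SICER islands with an island score, and MACS2 narrow peaks with a fold enrichment (a ratio of height to local background), −log10 p and −log10 q values, a peak score and a summit offset, all deposited per library with no input.

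From these files, with Python 3.11.15, pandas 2.3.3 and scipy 1.17.1, island coverage and peak values were taken per gene window (GENCODE v44lift37, 5 kb flanks). Height and local background were solved from fold and −log10 p for 100% of peaks (tolerance 0.002 in −log10 p). All deposited islands and peaks were used. Groups and replicate numbers came from the sample titles. MYCN values and interval coverage were set against their controls with the exact permutation test (two-sided), with Benjamini-Hochberg adjustment over 16 tests. Genes were compared with limma 3.58.1 (R 4.3.3, trend, 8 libraries of a mark in 1 fit), on log2 scaled peak numbers (pseudocount 0.5, mean of at least 2 peaks) and, added after the data were seen, on log2 local tag density. The solving of height and local background was tested on simulated peaks.

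The text names the 6 members, 14 listed genes of the short arm, marker genes, and per mark the 3 genes outside the interval that correlated best with MYCN. 1 adrenergic marker of the planned list is not reported here. Members and lists were chosen with earlier results of these data known. Shared replicate numbers did not pair libraries. Deviations from the group means correlated between −0.0272 and 0.0382, and the labels name no shared culture. Alternatives were the peak threshold (−log10 q of at least 5), joined peaks or islands, only islands of at least 2 kb, no flank, another pseudocount, filter or scaling, a replicate block, the libraries of a comparison alone and each library left out. Reads per region were not used here.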

Additional observations from a re-analysis of the deposited data

Results flagged for a closer look

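For 3 genes the H3K4me1 effect of the knockdown differed from that of GSKJ4 by the fitted difference of both effects on the local tag density. The difference (log2, knockdown minus compound) was 1.91 for MYCNOS, 1.91 for MYCN and −0.88 for GACAT3 (limma adjusted p = 5.58e-05, 5.58e-05 and 0.000512). Over all genes, 43.3% had a higher and 12.9% a lower difference. MYCN and MYCNOS were higher in both siKDM6B33 libraries and lower in both GSKJ4 libraries than in their controls, and GACAT3 was placed the other way round in all 4. The siRNA and compound experiments had separate controls, and experiment and treatment cannot be told apart in this difference. Labels and files do not show whether the siKDM6B33 H3K4me1 libraries hold signal of that mark alone. With peaks within 100 bp joined, the MYCN density difference after knockdown was −281 in place of 639.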

How the results depend on the processing

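At most 2 libraries stood in a group, ratios within a library cannot show a change of the whole genome, and copy number was not measured. Of values that answer a comparison, 338 were the same over the alternatives, 97 moved and 13 reversed. For an exact test the same meant an unchanged sign and side of the 0.05 threshold, with no limit on size. Its p cannot fall under 0.333, so these values could only stay or reverse. For counts of genes the same meant a similar size. Of single gene values, 790 stayed, 31 moved, 18 reversed, 14 gained a call and 24 lost it. The cause was not tested except where stated.

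With peaks within 100 bp joined, the MYCN H3K4me1 local tag density difference after knockdown was −281 in place of 639, because fewer peaks remained at the 5′ end and the median fell on a downstream peak, and the MYCN fold difference was 0.296 for H3K27me3 after knockdown and 0.136 for H3K4me1 with GSKJ4. With no flank, the MYCN H3K4me1 fold difference was 0.895 after knockdown and 0.0850 with GSKJ4, the MYCN H3K27me3 peak density difference with GSKJ4 was −0.774, and the density fit gave 0.18 for GACAT3 (H3K27me3, knockdown minus compound) and −0.088 for NBAS (H3K4me1, GSKJ4). With −log10 q of at least 5, the MYCN H3K27me3 peak density difference after knockdown was 0.304, the GACAT3 H3K27me3 fold 0.648, the NBAS H3K4me1 peak density 0.111, and with GSKJ4 the NBAS local tag density was 0.721 for H3K27me3 and −0.86 in the H3K4me1 fit. With islands within 2 kb joined, the H3K4me1 interval coverage difference after knockdown was 0 kb. With no scaling by peak number, the H3K27me3 peak fit gave 0.28 for CYRIA and 0.19 for GACAT3 after knockdown and 0.41 for GACAT3 and 0.089 for MYCN with GSKJ4.

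Counts of genes called in the peak fit (higher, lower) for H3K4me1 after knockdown were 299 and 406 with −log10 q of at least 5, 298 and 97 with no filter, 802 and 349 with pseudocount 2, 1 and 0 with no scaling and 2161 and 707 with the libraries of the comparison alone. With GSKJ4 they were 184 and 374 (−log10 q), 165 and 125 (no filter) and 1 and 1 (pseudocount 2), and for the difference of effects 430 and 315 (−log10 q) and 304 and 153 (pseudocount 2). For H3K27me3 with GSKJ4 they were 11 and 105 (−log10 q). In the density fit with −log10 q of at least 5, 8 genes were higher and 829 lower of 1278 for H3K27me3 after knockdown, 5 and 871 with GSKJ4, and 2 and 0 differed. For H3K4me1 1206 were higher and 1684 lower of 4460 after knockdown, 230 and 928 with GSKJ4 and 1236 and 1221 in the difference, and the median gene stood at −0.17 in place of 0.68 after knockdown. With no flank, H3K27me3 had 44 higher and 565 lower after knockdown and 16 and 544 with GSKJ4, and H3K4me1 had 3205 and 1521 after knockdown, 239 and 652 with GSKJ4 and 2870 and 1109 in the difference. With the compound libraries alone, 9 were higher and 567 lower for H3K27me3 and 0 and 0 for H3K4me1.

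Replicate numbers did not pair the libraries, and the replicate block is given as a hint only, with a smallest exact p of 0.5 for 2 pairs. The block left the MYCN H3K4me1 difference after knockdown at 639 and gave 0 and 0 calls in the H3K4me1 peak fit after knockdown. In the density fit it gave 31 higher and 558 lower for H3K27me3 after knockdown, 15 and 590 with GSKJ4 and 0 and 0 for the difference, and 0 and 0 for H3K4me1 with GSKJ4. Under the block the limma adjusted p was 0.0571 for MYCN H3K4me1 with GSKJ4, 0.175 for MYCN H3K27me3 with GSKJ4 and 0.0886 for CYRIA after knockdown.

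Leaving out each library in turn, the MYCN peak density difference ran from −0.911 to 0.304 for H3K27me3 after knockdown (0.304 without siCtrl replicate 2, 0 without siKDM6B33 replicate 2), from −1.52 to 2.73 with GSKJ4 (−1.52 without DMSO replicate 2, −0.304 without GSKJ4 replicate 1) and from −1.82 to 0.608 for H3K4me1 with GSKJ4 (0.608 without DMSO replicate 1). Peak fit counts (higher, then lower) ran from 0 to 15 and 0 to 32 for H3K4me1 after knockdown, 0 to 9 and 0 to 84 with GSKJ4, 0 to 297 and 0 to 64 for the difference (297 and 64 without GSKJ4 replicate 2), and for H3K27me3 from 0 to 2 higher with GSKJ4 and 0 to 1 lower for the difference. Density fit counts ran from 567 to 1070 lower for H3K27me3 after knockdown, 20 to 74 higher with GSKJ4 and 0 to 40 and 0 to 26 for the difference, and from 191 to 308 and 570 to 856 for H3K4me1 with GSKJ4. Single genes that changed sign ran from −0.58 to 0.37 for CYRIA (H3K27me3 peaks, knockdown), −0.116 to 0.032 and −0.067 to 0.12 for GACAT3 (H3K4me1 peaks, knockdown and GSKJ4), −0.29 to 0.11 for GACAT3 (H3K27me3 density, GSKJ4) and −0.53 to 0.67 for NBAS (H3K4me1 density, GSKJ4).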
